A study of Homo sapiens with 3 samples.

Results

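Peaks of p300/CBP that were wide after depletion of Fra-1 and had no counterpart in control cells are described here. They were chosen by position and width alone: a peak of the siFra-1 list on chromosomes 1 to 22 and X, at least 250 bp wide, that shared no base with any peak of the siCTL list. Of 5968 siFra-1 peaks of this width, 1902 (31.9%) were selected on these values, and they are called unoverlapped peaks below. The other 4066, which shared at least 1 base with a siCTL peak, are called overlapped peaks and served for comparison. The siFra-1 list held 39320 peaks in all, and both lists together held 122221.

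The lists come from ChIP-seq of p300/CBP in the established line MDA-MB-231, from triple-negative breast cancer of the basal B class. The siCTL cells had received a control siRNA at 4.5 nM, and the siFra-1 cells a pool of 3 siRNAs against Fra-1 at the same dose, and both were fixed 72 h later, for 7 min according to the labels, whereas the methods text gives a shorter time. The series addressed whether Fra-1 affects where p300 and CBP sit on chromatin. Replicate immunoprecipitations were pooled before sequencing, so that there was 1 library per condition. No difference between siCTL and siFra-1 could therefore be set against a spread between replicates, and no p-value is given. The 95% intervals given here account only for counting error among peaks or genes, and neighbouring peaks are not independent. The lists give no height or read number, and sequencing depth is therefore not known. How far Fra-1 was depleted is not recorded in them either.

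Fra-1, the product of FOSL1, belongs to the Fos family and binds DNA as a partner of Jun proteins, the pair being known as AP-1. The related lysine acetyltransferases p300 and CBP do not read DNA sequence by themselves. They are brought to enhancers and promoters by transcription factors, acetylate histones there, and are widely used as marks of active enhancers. Forkhead (FOX), RUNX, TEAD and C/EBP proteins are among the factors that can occupy enhancers in epithelial and mesenchymal cells, alone or beside AP-1.

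Sequence and gene neighbourhood, which the choice did not use, set the unoverlapped peaks apart from overlapped peaks of the same widths. They held the AP-1 motif less often and the FOX motif more often, and the RUNX motif was also more frequent in them. They lay near genes whose RNA rose after siFra-1 more often than near genes whose RNA fell. They were not closer to promoters. The sequences below show examples of these motifs, and of GATA and TEAD, as read from the plus strand of GRCh37, the assembly that hg19 names. GATA is shown by a rule fixed on its difference from overlapped peaks, but it was as frequent beside the unoverlapped peaks (12.5%) as within them (13%).

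FOX proteins bind TGTTTAC or TGTTTGC. The unoverlapped peaks with the most FOX matches in the whole peak, 4 in each case, spanned chr13:34736252-34736551, intergenic and 344 kb away from the transcription start site (TSS) of RFC3, and chr3:81298652-81298951, within an intron of the long non-coding RNA gene ENSG00000241593 and 512 kb away from the start of GBE1. Both were 300 bp wide. The stretches chr13:34736332-34736514 and chr3:81298652-81298858 are shown because they hold 4 and 3 of these matches, which are in capitals on either strand.
FOX, chromosome 13: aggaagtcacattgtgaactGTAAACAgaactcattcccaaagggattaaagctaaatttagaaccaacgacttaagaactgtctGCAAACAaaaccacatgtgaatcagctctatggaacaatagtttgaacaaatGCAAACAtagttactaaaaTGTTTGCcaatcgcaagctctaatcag
FOX, chromosome 3: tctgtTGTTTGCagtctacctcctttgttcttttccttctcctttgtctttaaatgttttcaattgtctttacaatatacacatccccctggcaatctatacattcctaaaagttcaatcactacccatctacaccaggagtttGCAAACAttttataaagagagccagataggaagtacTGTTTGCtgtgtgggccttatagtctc

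RUNX proteins bind TGTGGT. The unoverlapped peaks with the most RUNX matches were both made of short repeated units, and so were not typical of the set. The first, at chr5:174758552-174758851, held 8 matches and lay 112 kb from the TSS of DRD1, and the second, at chr4:3877902-3878401, held 7 and lay 110 kb from the TSS of ADRA2C. The stretches chr5:174758666-174758839 and chr4:3878099-3878338 are shown so that the repeats can be seen, with RUNX matches in capitals.
RUNX, chromosome 5: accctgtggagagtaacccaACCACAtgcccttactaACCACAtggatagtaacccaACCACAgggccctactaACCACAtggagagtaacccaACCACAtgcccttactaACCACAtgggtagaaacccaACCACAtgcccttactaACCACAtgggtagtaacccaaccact
RUNX, chromosome 4: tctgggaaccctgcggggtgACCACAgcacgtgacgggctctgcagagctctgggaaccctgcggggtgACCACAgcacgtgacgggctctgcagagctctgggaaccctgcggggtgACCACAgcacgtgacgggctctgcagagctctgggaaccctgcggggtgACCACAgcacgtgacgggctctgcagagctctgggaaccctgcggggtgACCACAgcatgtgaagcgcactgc

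GATA factors bind AGATAA. The peak with the most matches, 4, was also among the widest of the set, at chr6:10033202-10034301 in an intron of the pseudogene OFCC1. The next, at chr10:124053302-124053901 in an intron of BTBD16, held 3. The stretches chr6:10033495-10033553 and chr10:124053302-124053327 hold 2 and 1 of them, in capitals.
GATA, chromosome 6: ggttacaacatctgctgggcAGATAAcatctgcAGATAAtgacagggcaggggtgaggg
GATA, chromosome 10: TTATCTctgacctgaatgctggcagg

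AP-1 binds TGAGTCA or TGACTCA. Unoverlapped peaks with AP-1 matches were the minority, and the one with 3 matches at chr6:88432952-88433301, 21.2 kb from the TSS of AKIRIN2, is shown as the contrast, chosen after its values were seen. The same holds for the widest unoverlapped peaks within 100 kb of KRT80 and of HEG1. KRT80 encodes a keratin and HEG1 a membrane protein of cell junctions, and they are genes at whose promoters the study measured chromatin contacts. In the peak near KRT80, at chr12:52624102-52624501, a RUNX match shared bases with a TEAD match (GGAATG, here on the minus strand) with an AP-1 match further on. The protein-coding TSS nearest to this peak was that of KRT7, another keratin gene, 2.0 kb away. The peak near HEG1, at chr3:124847752-124848251 in an intron of the neighbouring gene SLC12A8, held 3 RUNX and 2 TEAD matches. The stretches are chr6:88433013-88433225 with AP-1 in capitals, chr12:52624178-52624280 with all 3 motifs in capitals, and chr3:124847901-124847975 with the RUNX matches in capitals.
AP-1, near AKIRIN2: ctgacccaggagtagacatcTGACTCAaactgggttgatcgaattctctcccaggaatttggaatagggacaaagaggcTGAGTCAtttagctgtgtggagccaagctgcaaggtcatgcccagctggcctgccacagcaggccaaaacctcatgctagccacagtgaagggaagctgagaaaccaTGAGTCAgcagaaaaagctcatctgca
RUNX, TEAD and AP-1, near KRT80: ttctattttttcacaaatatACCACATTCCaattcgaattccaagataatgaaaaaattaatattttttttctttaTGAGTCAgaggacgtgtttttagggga
RUNX, near HEG1: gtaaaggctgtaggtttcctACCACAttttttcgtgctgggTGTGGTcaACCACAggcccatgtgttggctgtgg

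Width was used in the choice and is given as a description. Their median width was 300 bp and the widest was 1100 bp, against 400 and 2250 bp for overlapped peaks. The share without a siCTL overlap fell from 50.3% of peaks of 250 bp (565 of 1123) to 4.80% at 700 bp and over (26 of 542). Just outside the width limit, 1038 of 1681 siFra-1 peaks of 200 bp (61.7%) had no siCTL overlap. At 500 bp and over there were 242 unoverlapped peaks.

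**Figure D1:**
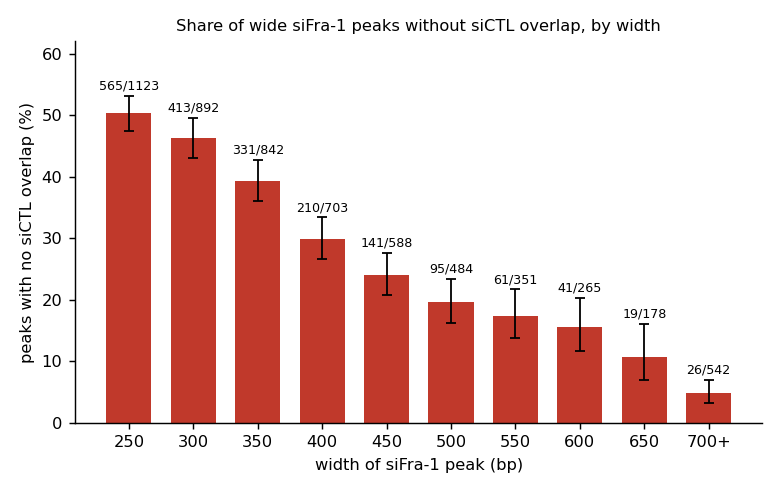
Percent of wide siFra-1 peaks that shared no base with a siCTL peak (vertical axis), by peak width in bp (horizontal axis, 700 bp and over pooled), with 95% Wilson intervals and the counts above each bar. The share falls from 50.3% at 250 bp to 4.80% at 700 bp and over.

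Absence of overlap did not always mean distance from control signal. The median gap from an unoverlapped peak to the nearest siCTL peak was 3.75 kb (quartiles 0.850 and 11.9 kb), and the largest was 579 kb. The gap was at most 200 bp for 223 unoverlapped peaks and at most 1 kb for 530 (27.9%), whereas 28.5% were more than 10 kb from any siCTL peak. For 52 the gap was 0 when the lists were read as BED. All written starts and ends are 1 above a multiple of 50, and if the authors counted from 1, these 52 would share 1 base with a siCTL peak and fall outside the set. On the other side of the limit, 672 overlapped peaks met no siCTL peak of 150 bp or wider. As the lists hold only runs of signal above a fixed threshold, a siCTL signal just under it leaves no peak, and the difference between a gained site and a site already weakly occupied cannot be told apart from these files.

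A part of both classes lay near the largest assembly gaps. At most 1 Mb from a run of unknown bases 1 Mb or longer lay 79 unoverlapped peaks (4.15%) and 371 overlapped peaks (9.12%). Tandem copies of GGAAT, a satellite unit whose junctions spell the TEAD motif GGAATG, were present in 15 unoverlapped peaks, 10 of them near such a gap, and in 171 overlapped peaks. Not all peaks near gaps were of this kind, as the one beside ID1 described below was among them. The differences from overlapped peaks in introns, between genes, over 100 kb from a TSS, in neighbours within 50 kb and in TEAD are therefore given with and without peaks near these gaps. Other values include such peaks unless stated, also those of TEAD against siCTL peaks and by distance from the centre.

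The centre fell in an exon for 5.68% of unoverlapped peaks, in an intron for 58.2% and outside genes for 36.1%. Overlapped peaks weighted to the same widths gave 7.58%, 52.2% and 40.2%. The difference was -1.91 percentage points for exons (-3.34 to -0.469), 5.95 for introns (3.05 to 8.85) and -4.05 between genes (-6.88 to -1.21). Without peaks near large gaps the intron difference was 1.63 percentage points (-1.35 to 4.62) and that between genes was 1.02 (-1.84 to 3.88), so that the excess in introns rested on the gap peaks. First introns of protein-coding genes held 11.9% of unoverlapped peaks and 11% of overlapped peaks, a difference whose interval included 0.

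Promoters were not favoured. Some part of 80 unoverlapped peaks (4.21%) lay in the 3 kb centred on a protein-coding TSS, against a weighted 4.55% of overlapped peaks, with a difference of -0.346 percentage points (-1.54 to 0.849). Unoverlapped peaks lay at a median of 61.8 kb from a protein-coding TSS, and overlapped peaks at 58.2 kb. Unoverlapped peaks more than 100 kb away were 37.5% of the set, and the difference from overlapped peaks was -1.55 percentage points (-4.40 to 1.3). Without peaks near large gaps it was 3.68 (0.801 to 6.56).

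The 80 promoter peaks included several genes with known roles in inflammation and signalling, named here from the fixed lists. A peak of 600 bp lay 0.264 kb from the TSS of TNIP1, an inhibitor of NF-kB signalling, and one of 600 bp lay 0.789 kb from that of TNFAIP2, a TNF-induced gene. The chemokine gene CXCL2 had a peak 0.639 kb from its TSS. TGFBR2, the type II receptor of TGF-beta, had one at 0.316 kb, and FOSL2, which encodes Fra-2, had one whose centre lay at 1.54 kb and whose edge reached the window. OAS1, an interferon-induced antiviral enzyme, had one at 1.11 kb. Among genes raised after siFra-1 on the arrays, NEBL, HMGCS1, LRP10, REEP3, LGALS8, VIPR1, PIK3C2B and KLHL5 each had an unoverlapped peak in this window, and MYADM and RIN2 did so among the genes lowered. The lists held 285 raised and 228 lowered genes, and their shares in this window were not compared. Gaps to the nearest siCTL peak ran from 0.1 kb at NEBL to 14.4 kb at HMGCS1 for the raised genes. They were 1.05 kb at MYADM and 0.8 kb at RIN2.

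Most unoverlapped peaks stood alone. Chained within 50 kb, 1247 had no other member of the set nearby, and 655 (34.4%) fell into runs, of which 190 held 2 peaks, 53 held 3 and 24 held 4 or more. Another wide siFra-1 peak of either class lay within 50 kb of 59.0% of unoverlapped and a weighted 63.8% of overlapped peaks, a difference of -4.74 percentage points (-7.59 to -1.88) that was -1.82 (-4.82 to 1.19) without gap peaks. The median distance to the nearest wide siFra-1 peak was 23.7 kb for unoverlapped and 12.2 kb for overlapped peaks. That nearest peak was itself unoverlapped for 37.8% of the unoverlapped and 27.9% of the overlapped peaks. Away from gaps, an unoverlapped neighbour within 50 kb was more frequent for unoverlapped peaks by 5.92 percentage points (3.16 to 8.68), whereas over all chromosomal positions the difference was 0.646 (-2.12 to 3.41).

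Of the 5 longest runs, with ties at 5 peaks settled by the shorter span, 4 lay beside large gaps. Of all 9 runs of at least 5 peaks, 5 did so. They spanned chr2:92284202-92325751 with 14 peaks, chr21:10710352-10773551 with 7, chr17:22248302-22256201 with 5 and chr10:42527202-42545051 with 5. The siCTL list had 11 to 48 peaks inside these spans, so they were not free of control signal. The other run lay within CMKLR1 (chromosome 12, 108681821 to 108733094, minus strand), which encodes a receptor for the chemoattractant chemerin. Its 5 peaks spanned chr12:108696102-108718851 and were 250 to 1100 bp wide, with 2 overlapped wide peaks and 3 siCTL peaks in the same span.

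Of the 24 runs of 4 or more, 17 lay away from large gaps, and those with 5 peaks are named here after their values were seen. In IGF1R, the gene of the insulin-like growth factor 1 receptor (chromosome 15, 99191768 to 99507759, plus strand), 5 peaks spanned 49.9 kb with 1 siCTL peak among them, and 4 of the 5 held a FOX match while none held AP-1. In TPRG1, 5 peaks spanned 51.9 kb (chr3:189022202-189074051) with 3 siCTL peaks. The nearest protein-coding TSS was that of TP63, at 189349178, which had no unoverlapped peak within 100 kb. In SHROOM3, a regulator of cell shape through actin and myosin, 5 peaks spanned 75.7 kb with 6 siCTL peaks, and 4 of the 5 held a TEAD match. Over all unoverlapped peaks, the whole-peak shares were 17.9% for AP-1, 30.3% for FOX and 38.6% for TEAD.

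Protein-coding genes that hosted an unoverlapped peak numbered 728, of which 150 hosted at least 2 and 46 at least 3, and 359 long non-coding RNA genes did so. They were long genes, with a median length of 127 kb, against 109 kb for hosts of overlapped peaks and 27.3 kb for all protein-coding genes. Of the hosts, 403 had no overlapped wide peak. The matching count for hosts of overlapped peaks was not taken, so this number is a description only. The genes with the most were ENSG00000251314, a long non-coding RNA gene with 6, and CMKLR1, IGF1R, SHROOM3 and the long non-coding RNA gene PVT1 with 5 each. LINC02099, LINC00513, LINC01588, MYO18A and LIMD1 hosted 4 each. MYO18A, an unconventional myosin gene, hosted no overlapped wide peak, whereas PVT1 hosted 12 of them and LINC01588 hosted 6. LIMD1, which encodes an adaptor linked to Hippo signalling, hosted 3 overlapped wide peaks.

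The 5 widest unoverlapped peaks all lay in introns and none held an AP-1 match in the whole peak. Of all unoverlapped peaks 17.9% held such a match. The peak in CMKLR1, at chr12:108696102-108697201, was 1100 bp wide with 3 TEAD matches and 1 RUNX match. The peak in OFCC1, of the same width, held 2 RUNX, 1 TEAD and 1 FOX match. The peak at chr1:210412552-210413601 in SERTAD4 was 1050 bp wide, lay 6.94 kb from the TSS and held 2 RUNX matches and 1 TEAD match. In GSE1, a peak of 1000 bp at chr16:85557952-85558951 touched a siCTL peak, so its status depends on the exact ends called. The last, of 1000 bp at chr6:19465352-19466351 in the long non-coding RNA gene LNC-LBCS, held 2 TEAD matches and 1 FOX match.

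To learn which sequences set the unoverlapped peaks apart, 25 consensus motifs were searched on both strands in the 200 bp round the peak centre. The share of overlapped peaks was weighted to the widths of the unoverlapped peaks. For 8 motifs the interval of the difference lay above 0, for 6 below 0, and for 11 it included 0. Windows moved by 2 kb to either side gave the background in the same neighbourhood.

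The AP-1 motif and its looser form had the widest differences. AP-1 was present in 239 unoverlapped peaks (12.6%) and in a weighted 28.5% of overlapped peaks, a difference of -15.9 percentage points (-18.2 to -13.7). The moved windows gave 3.73% and 3.42%, so unoverlapped peaks still held AP-1 above their surroundings. In the whole peak, 29 unoverlapped peaks (1.52%) held 2 or more AP-1 matches, against 315 overlapped peaks (7.75%). These 2 shares were not weighted to width, and overlapped peaks were wider (median 400 against 300 bp), so width enters into this contrast. The looser form TGANTCA gave 18.2% and 35.7%, a difference of -17.5 (-20.0 to -15.0).

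FOX showed the opposite direction. It was present in 437 unoverlapped peaks (23%) and in a weighted 15.3% of overlapped peaks, a difference of 7.64 percentage points (5.34 to 9.94), against 6.55% and 5.79% in moved windows. The share was higher in unoverlapped peaks at each width step but 650 bp, for example 24.7% against 14.2% at 300 bp and 25.4% against 18.8% at 350 bp. At 500 bp and over, with 242 unoverlapped peaks, the difference was 4.81 percentage points (-0.722 to 10.3). Weighting the overlapped peaks to GC content as well as width, an alternative added after the data were seen, gave 7.68 (5.39 to 9.96). FOX and AP-1 matches were both present in 2.16% of unoverlapped and 4.11% of overlapped peaks, not weighted to width. Whether these shares differ from those of motifs placed independently was not tested. Among peaks without AP-1 the FOX difference was 7.92 percentage points (5.36 to 10.5).

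RUNX was present in 549 unoverlapped peaks (28.9%) and a weighted 24.5% of overlapped peaks, a difference of 4.38 percentage points (1.81 to 6.96), with 13.2% and 13% in moved windows. At 500 bp and over the difference was 4.16 (-2.16 to 10.5). C/EBP proteins, which take part in inflammatory and differentiation programmes, bind TTGCNNAA, and this motif was found in 17% and 14.0%, against 10.0% and 8.94% in moved windows. The NFI motif TTGGCA was found in 16.4% and 13.3%, against 9.91% and 9.11%. At 500 bp and over the intervals of both differences included 0 (-0.929 to 9.33 for C/EBP and -2.81 to 7.54 for NFI), and so did that of C/EBP among peaks without AP-1 (-0.14 to 4.67). The POU motif ATGCAAAT was rare, in 2.21% and 1.13%. GATA was found in 13% and 9.0%, a difference of 4.04 (2.18 to 5.89), but the moved windows of unoverlapped peaks gave 12.5%. GATA matches were thus as frequent beside the unoverlapped peaks as within them. The glucocorticoid receptor motif AGAACA (13.6% within, 14.8% moved) was not above its surroundings either, and the homeobox motif TAATTA (3.15% within, 5.99% moved) was less frequent within the peaks than beside them.

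TEAD proteins carry the transcriptional output of the Hippo pathway and often share enhancers with AP-1. TEAD was found in 27.8% of unoverlapped and a weighted 31.9% of overlapped peaks, a difference of -4.05 percentage points (-6.70 to -1.39). Without peaks near large gaps the difference was -1.08 (-3.79 to 1.63), and without peaks holding tandem GGAAT it was -1.22 (-3.86 to 1.43). Of the motifs with smaller differences, the glucocorticoid receptor, homeobox, STAT and CAGGTG motifs and the longer TEAD form each had an interval that included 0 under at least 1 alternative at the width limit used here. The intervals of the E-box CAGGTG, the STAT motif TTCCNGGAA and a longer TEAD form (ACATTCC or GCATTCC) also lay below 0. Those of CRE (TGACGTCA), a longer RUNX form (TGTGGTTT or TGTGGTTA), NF-kB (GGANTTTCC or GGANTTCCC), ETS (CCGGAAGT or ACAGGAAG), SOX (AACAATG or ACAAAGG), SMAD (GTCTAGAC or CAGACAG), the E-box CAGCTG, KLF/SP (GGGCGGG or GGGTGTG), the CArG box (CCATATNNG or CCTTATNNG), IRF (AAANTGAAA) and CTCF (AGGGGGCG or AGGTGGCG) included 0. RUNX matches can overlap the longer RUNX form, TEAD matches the longer TEAD form, and AP-1 matches the looser AP-1 form, so these are not separate observations.

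**Figure D2:**
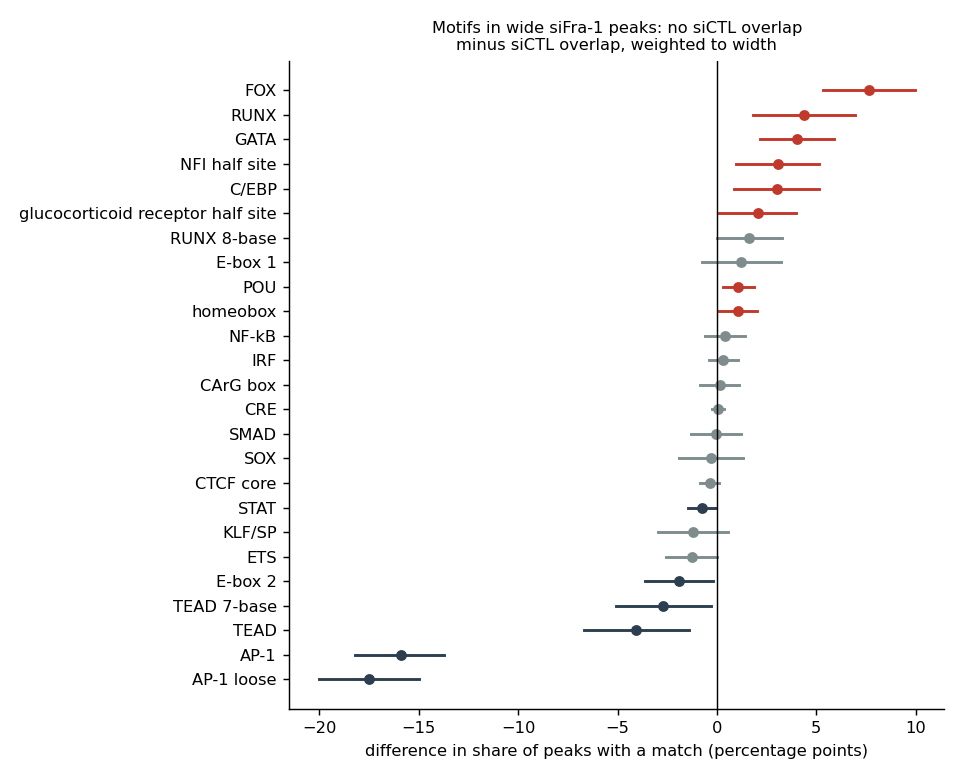
Difference in the share of peaks with a motif match in the 200 bp round the centre, unoverlapped minus overlapped wide siFra-1 peaks weighted to the same widths, in percentage points (horizontal axis) for 25 motifs (vertical axis). Points are differences and lines 95% intervals, in red above 0, in dark blue below 0 and in grey where 0 is included. E-box 1 is CAGCTG and E-box 2 is CAGGTG. FOX is highest at 7.64 and the 2 forms of AP-1 are lowest.

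The matches lay where the peaks were centred. In the bin from 0 to 50 bp on the right of the centre, a FOX match was present in 8.20% of unoverlapped and 4.94% of overlapped peaks, and an AP-1 match in 4.52% and 8.76%. RUNX reached 9.94% and 8.17% in this bin and TEAD 9.36% and 12.4%. TEAD matches were also fewer at unoverlapped peaks 450 to 500 bp left of the centre, in 3.89% against 5.71%, where FOX stood at 2.05% and 1.6%.

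**Figure D3:**
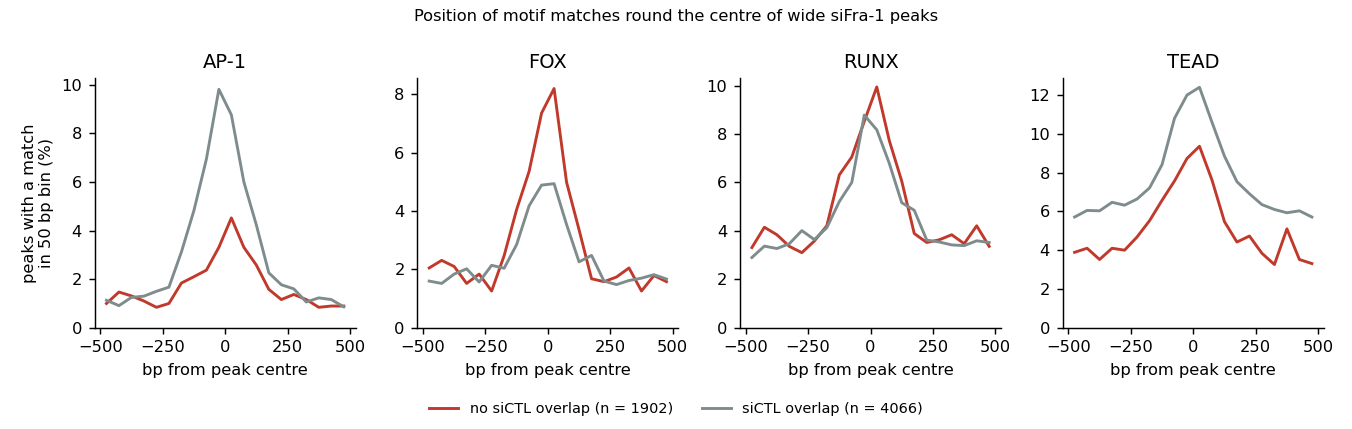
Percent of peaks with a motif match starting in each 50 bp bin (vertical axis, its own scale in each panel) by distance from the peak centre in bp (horizontal axis), for AP-1, FOX, RUNX and TEAD, in 1902 unoverlapped (red) and 4066 overlapped (grey) peaks, not weighted to width. FOX peaks at 8.20% of unoverlapped and 4.94% of overlapped peaks, while AP-1 is higher in the overlapped peaks.

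Words of 7 bases were ranked without any list of motifs, on odd-numbered chromosomes, and their shares were then read on the other chromosomes. Of the 10 words most in excess in unoverlapped peaks, TGTTTGC and TGTTTAC are the FOX motif itself. TGTTTGC was found in 12.8% of unoverlapped against 8.04% of overlapped peaks on odd-numbered chromosomes and in 12.3% against 8.08% on the others. For TGTTTAC the shares were 11.9% against 7.10% and 11.9% against 8.70%. The word TATTTGC stood at 9.51% against 4.03% on the other chromosomes, and AAATAAA, rich in A and T, at 13% against 7.77%. AAGAAAA had the smallest difference there of the 10 words, with 8.05% against 7.27%, after 11.3% against 7.12% on odd-numbered chromosomes. Of the 10 words most in deficit, TGACTCA came first, with 12.3% against 28.3% on odd-numbered chromosomes and 12.9% against 28.7% on the others.

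Base composition differed as well. The central 200 bp of unoverlapped peaks had 46.7% G and C on average, and weighted overlapped peaks 48.1%, a difference of -1.39 percentage points (-1.89 to -0.896). The observed to expected ratio of CpG was 0.239 against 0.307. Of the unoverlapped peaks, 87.4% lacked AP-1 in the centre, and of the overlapped peaks 72.1%. Of the peaks without AP-1, 62.7% and 61.4% held a FOX, RUNX or TEAD match. None of the 4 motifs was found in the centre of 32.6% of unoverlapped and 27.8% of overlapped peaks.

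The counterpart of the set in control cells gave a further comparison, chosen after the data were seen. It consists of 547 siCTL peaks of at least 250 bp that shared no base with a siFra-1 peak. Wide peaks were fewer in the siCTL list, with 3655 of its 82901 peaks on all chromosomes, against 5989 of 39320 in the siFra-1 list. Weighted to the widths of the unoverlapped siFra-1 peaks, they held FOX in 8.03%, RUNX in 18.1%, TEAD in 18.0% and AP-1 in 32.1%. The siFra-1 set exceeded them by 14.9 percentage points for FOX (11.7 to 18.1), by 10.8 for RUNX (5.75 to 15.8) and by 9.81 for TEAD (5.11 to 14.5), and for AP-1 the difference was -19.5 (-25.3 to -13.8). For C/EBP and NFI the intervals, -0.432 to 8.70 and -1.15 to 7.49, included 0. As the siCTL and siFra-1 lists also differed in their number of peaks and in the share of wide ones, the source of these differences was not tested.

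Whether unoverlapped peaks lay near genes that respond to Fra-1 was asked with the genes that the study's expression arrays listed as preferentially changed after siFra-1 in the same cell line, of which only symbols and directions were taken. Protein-coding genes with an unoverlapped peak within 100 kb of the TSS were 2375 of 20098 (11.8%). Among genes raised after siFra-1 they were 96 of 285 (33.7%, Wilson interval 28.4 to 39.4), and among genes lowered 38 of 228 (16.7%, 12.4 to 22). The difference between raised and lowered genes was 17 percentage points (Newcombe interval 9.51 to 24.1). For overlapped peaks the shares were 42.5% and 35.5%, a difference of 6.93 (-1.58 to 15.2), with 21.2% of all protein-coding genes. At 500 bp and over the order of the classes turned, with 7.02 (3.18 to 11) for unoverlapped and 11.1 (3.93 to 18) for overlapped peaks. The levels of the listed genes in these cells were not used, so expression was not matched with that of all protein-coding genes.

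Raised genes exceeded lowered genes at each of the distances tried. Within 10 kb of the TSS, an unoverlapped peak was present for 33 raised genes (11.6%, 8.36 to 15.8) and 7 lowered genes (3.07%, 1.49 to 6.2), against 1.49% of all protein-coding genes. Within 250 kb it was present for 49.8% and 28.5%, against 26.0%. Within 500 kb it was present for 66.3% and 44.3%, against 43.1%, so that the share of lowered genes stood close to that of all genes at the wide windows.

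**Figure D4:**
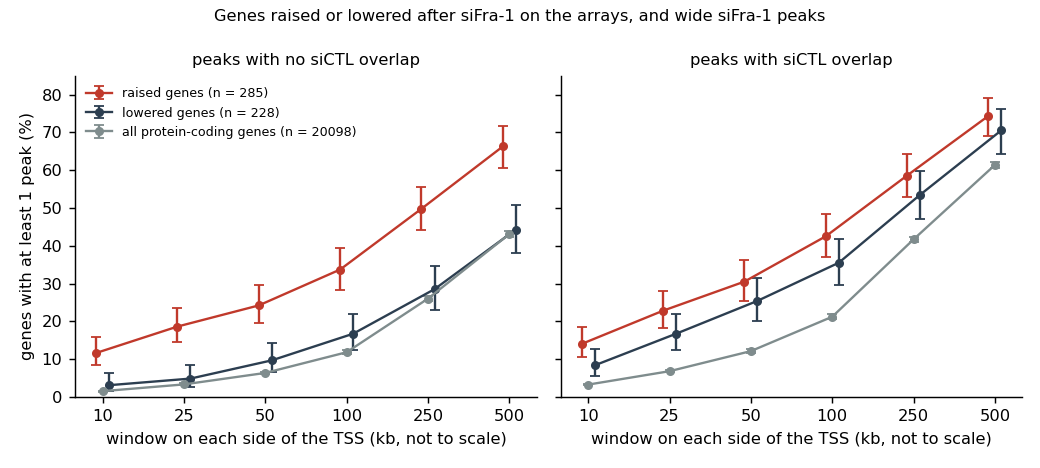
Percent of genes with at least 1 wide siFra-1 peak (vertical axis) within 10 to 500 kb on each side of the TSS (horizontal axis, not to scale), for unoverlapped peaks (left) and overlapped peaks (right), with 95% Wilson intervals. Red are 285 genes raised after siFra-1 on the arrays, dark blue 228 genes lowered and grey all 20098 protein-coding genes. At 100 kb unoverlapped peaks reach 33.7% of raised and 16.7% of lowered genes, and overlapped peaks 42.5% and 35.5%.

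The same was seen from the side of the peaks. Of 334 wide siFra-1 peaks within 100 kb of a raised gene and not of a lowered gene, 124 were unoverlapped (37.1%, 32.1 to 42.4). Of 196 near a lowered gene and not near a raised gene, 44 were (22.4%, 17.2 to 28.8). The difference was 14.7 percentage points (6.60 to 22.2), and 16.8 (9.45 to 24.1) when peaks near lowered genes were weighted to the same widths. The wide siCTL peaks without siFra-1 overlap stood the other way round, with such a peak near 5 of 285 raised genes (1.75%) and 34 of 228 lowered genes (14.9%), a difference of -13.2 percentage points (-18.5 to -8.52), while 5.96% of all protein-coding genes had one.

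The raised gene with the most unoverlapped peaks within 100 kb was PTPRJ, a receptor tyrosine phosphatase gene, with 4. It was followed by 8 genes with 3 each, of which LGALS8, the gene of galectin-8, and TBC1D2B, of the TBC family, had the nearest of them. TBC1D2B had no overlapped wide peak in this window. The nearest unoverlapped peaks lay 0.0380 kb from the TSS of NEBL, 0.288 kb from that of HMGCS1, an enzyme of cholesterol synthesis, and 0.347 kb from that of LRP10, a receptor of the LDL receptor family. HMGCS1 had 2 unoverlapped peaks and no overlapped wide peak. ID1 and ID3, inhibitors of basic helix-loop-helix factors, had 1 each at 2.19 and 2.96 kb, and for ID1 this stood beside 9 overlapped wide peaks. Of the lowered genes, HK2 had 3, and RIN2, SLC43A3, RAP2B, METTL9 and NRM had 2 each.

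At the promoters used as viewpoints for chromatin contacts, an unoverlapped peak lay within 100 kb of 8 of 18 genes raised by Fra-1 depletion and of 4 of 15 protein-coding genes lowered by it, and the intervals of these shares overlapped widely. The loci were dense in wide peaks of either class, as 15 of the 18 and 11 of the 15 had an overlapped one, and the share of all protein-coding genes with an unoverlapped peak was 11.8%. HES1, a repressor downstream of Notch, had a peak of 500 bp at 4.82 kb past its TSS with 1 TEAD match, and 9.50 kb from the nearest siCTL peak. LRP10 had one at 0.347 kb before its TSS with a TEAD, a RUNX and a FOX match. The peak near KRT80 lay 38.5 kb before the TSS. It was much closer to the TSS of KRT7, 2.0 kb away, which was also among the genes raised on the arrays. HEG1 had 2 peaks 73.2 and 73.8 kb before its TSS, both more than 31 kb from any siCTL peak. SMAD6, an inhibitory SMAD, had 1 peak 84.6 kb before and 1 peak 61.3 kb past its TSS. TES, which encodes a LIM protein of focal adhesions, had 1 peak 63.0 kb past the TSS with 2 FOX matches, FNDC3B had 1 at 98.5 kb and ID1 the one given above. The gap to the nearest siCTL peak was 0.35 kb at ID1, 0.7 kb at LRP10, 0.9 kb at FNDC3B, 1.05 kb at TES and 13.5 kb at KRT80. At SMAD6 it was 0.9 kb for the peak before the TSS and 2.2 kb for the peak past it.

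Among the viewpoints lowered by Fra-1 depletion, HK2, the gene of hexokinase 2, had 3 unoverlapped peaks of 300, 300 and 400 bp in an intron, 31.4, 32.7 and 34.0 kb past the TSS. The siCTL list had peaks 0.1 to 1.40 kb from them, and the second held 2 FOX matches. MYO10, a myosin gene of filopodia, had 1 peak 41.8 kb past its TSS, EMP1 had 1 at 12.5 kb and SRGAP1 had 1 at 18.7 kb. Their gaps to the nearest siCTL peak were 1.6, 2.35 and 2.85 kb. The pseudogene RPSAP52, which runs antisense to HMGA2, had 3, at 2.27 kb past and at 50.4 and 53.1 kb before its TSS. The first of these lay 0.262 kb from the TSS of HMGA2, so that these genes share it. In the same order, the 3 peaks lay 2.0, 9.5 and 7.75 kb from the nearest siCTL peak. No AP-1 match was found in any unoverlapped peak near a lowered viewpoint, and 2 of the 10 near raised viewpoints held one. Of all unoverlapped peaks 17.9% held one in the whole peak, so these few peaks do not set the 2 groups of viewpoints apart.

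Other gene lists were compared with the 11.8% of all protein-coding genes, and none was tested as a set. An unoverlapped peak within 100 kb was found for 11 of 26 NF-kB factors and targets, 11 of 26 integrin and focal adhesion genes, 11 of 32 Hippo and TEAD target genes, 6 of 18 C/EBP factors and glucocorticoid receptor targets, and 8 of 27 genes of TGF-beta signalling. In each of these the lower limit of the interval was above 11.8%, but overlapped wide peaks were also more frequent there than the 21.2% of all genes, except that for C/EBP and glucocorticoid receptor genes the interval of the latter, 20.3% to 61.4%, included that share. Near the share of all genes stood 2 of 21 genes of the Fos, Jun, ATF and MAF families (9.52%, 2.65 to 28.9). Of these 21 genes, 10 had an overlapped wide peak. An unoverlapped peak was found for 2 of 16 genes of p300, CBP and their partners (12.5%, 3.5 to 36.0) and 1 of 10 RUNX factors and cofactors (10.0%, 1.79 to 40.4). In each of these the interval included 11.8%.

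Within these lists, AMOTL2, a Hippo pathway scaffold, had 4 unoverlapped peaks within 100 kb and NT5E and F3 had 2 each. For TGF-beta signalling TGFBR2, SMAD3 and BMP4 had 3 each. For matrix genes COL1A1 had 3, and for focal adhesions ACTN4 and ITGB3 had 2 each. ERRFI1, a feedback inhibitor of the EGF receptor, had 3 and ANGPTL4 had 2. Among NF-kB genes TNIP1, CXCL2 and BCL3 had 2 each.

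For the luminal and the basal B lists the lower limits, 14.2% and 13.3%, were also above the share of all genes. Overlapped peaks stood at 64.7% of basal B genes (41.3 to 82.7) and at 37.5% of luminal genes (18.5 to 61.4), against 21.2% of all genes. The lower limits for unoverlapped peaks near genes of the remaining lists were at or under 11.8%, the share of all genes with one. The counts were 5 of 16 luminal markers (KRT18 and KRT8 with 2 peaks each), 5 of 17 basal B and mesenchymal markers (NT5E and CAV2 with 2 each), 7 of 32 matrix genes, 7 of 30 receptor tyrosine kinases and ligands (EPHA2, DDR1 and VEGFA with 2 each), 5 of 21 keratins and epithelial genes, 4 of 22 interferon response genes (IRF1 with 2), 2 of 12 mesenchymal transition factors and 3 of 30 axon guidance genes. KRT8 and KRT18 are neighbours and share their peaks, and so can genes of other lists. Of the 5 keratin and epithelial genes, KRT7, KRT80, KRT81 and KRT86 share 1 peak. CEBPA and CEBPG also share 1, so the genes of a list are not separate observations. A peak near a gene does not measure its RNA, and which gene a peak acts on is not known from these files.

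**Figure D5:**
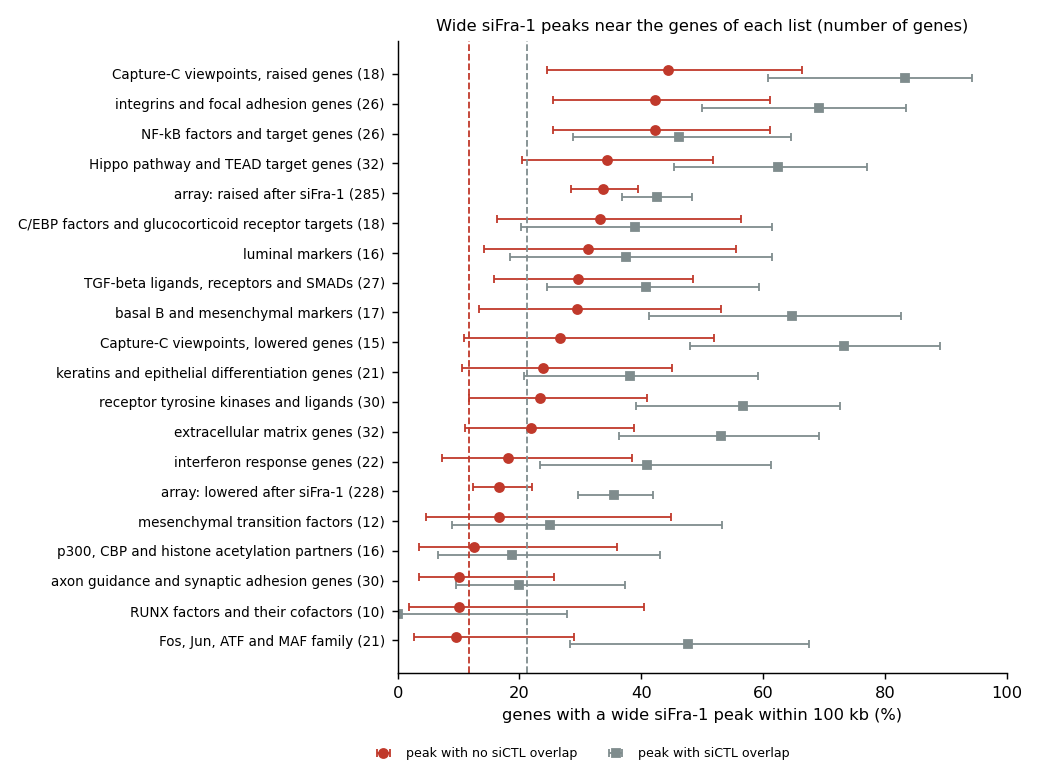
Percent of the genes of each list with at least 1 wide siFra-1 peak within 100 kb of the TSS (horizontal axis), for unoverlapped peaks (red circles) and overlapped peaks (grey squares), with 95% Wilson intervals and the number of protein-coding genes of the list in brackets. Dashed lines are the shares of all 20098 protein-coding genes, 11.8% and 21.2%. Genes raised on the arrays stand at 33.7% for unoverlapped peaks and genes lowered at 16.7%.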

How the data were processed

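Of 3 samples, the siCTL and siFra-1 lists of p300/CBP peaks were used, and the input was not analysed here. The authors aligned reads to hg19, with BWA-backtrack according to their methods and with Bowtie2 according to the submitters' processing notes, made signal in bins of 50 bp with PASHA, scaled it and subtracted background. They called peaks as runs above a threshold of 25, with a gap and run of 50 bp. A parameter named with the files, of unstated meaning, differed between the libraries. The deposited lists used here give peak positions without signal or score. Scaling and a fixed threshold precede the lists, so library quality can change which peaks are present. Starts were read as BED and printed raised by 1. No test across conditions was possible.

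Overlap was counted at 1 bp. Sequence came from GRCh37, and 20098 protein-coding genes from GENCODE release 44 lifted to it. Overlapped peaks were weighted to the members' widths in steps of 50 bp (700 bp and over pooled), with normal-approximation intervals. Shares have Wilson intervals and differences between gene lists Newcombe intervals, all at 95%. Motifs were exact consensus matches in 200 bp. Of 562 symbols of the array lists, 535 matched the annotation directly or by an older symbol. Functions were tested on simulated data. Python 3.11.15, numpy 2.4.6, pandas 2.3.3, scipy 1.17.1, matplotlib 3.10.9 and samtools 1.23.1 were used.

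The members, lists and motifs were chosen with earlier results of these data known. Named were the 5 widest peaks, the 5 longest runs (ties by shorter span), the 10 genes hosting most peaks (ties by shorter gene), for each of the 3 motifs most in excess the 2 widest peaks with most matches, all peaks within 100 kb of a viewpoint, and up to 3 genes per list, of which some are not reported here. Other items were not fixed beforehand, and only some of them are marked as chosen after their values were seen. Those not marked include the promoter peaks of listed genes and the array genes given by their nearest peak. Alternatives were widths of 300 and 500 bp, other rules of siCTL overlap, omission of peaks near gaps, no weighting, other windows, and the whole peak.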

Additional observations from a re-analysis of the deposited data

How the results depend on the processing

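No paired analysis was possible because each condition had 1 library. The alternative by repeat content was not run, as the genome used carried no repeat marks. The AP-1, FOX and RUNX differences kept their direction under each alternative run for them, and so did the difference between raised and lowered genes for unoverlapped peaks. The cause of the shifts below was not tested, except that stricter or looser rules change counts by construction.

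At 300 bp and over, 27.6% of wide siFra-1 peaks were unoverlapped, 8.39% of genes had one nearby, and the difference for an unoverlapped neighbour was 3.71. At 500 bp and over there were 242 such peaks (13.3%), with 1.72% of genes, and the differences were -6.26 for exons, 9.20 for introns, -0.910 for first introns, 0.393 for a wide neighbour, which reversed, -1.96 for GC, -9.35 for TEAD, 4.81 for FOX and 7.02 for raised minus lowered genes, where overlapped peaks gave 11.1 (3.93 to 18), the larger of the pair under this alternative only. Counting siCTL peaks within 200 bp gave 28.6% and 10.7% of genes, and counting only siCTL peaks of 150 bp and over gave 43.1% and 15.2%. Without peaks near large gaps the differences were 1.63 for introns, 1.02 between genes, which reversed, 3.68 for positions over 100 kb from a TSS, -1.82 for a wide and 5.92 for an unoverlapped neighbour, -2.19 for GC, -0.0343 for CpG, -18.9 for AP-1 and -1.08 for TEAD. Without weighting they were -8.94 and -2.53 for these neighbours and -0.0534 for CpG. In the whole peak AP-1 was -18.6. Without tandem GGAAT, added after the data were seen, CpG was -0.0489 and TEAD -1.22. Gene windows of 50 and 250 kb gave 6.32% and 26.0% of genes.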

Other observations

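The share of wide siFra-1 peaks that were unoverlapped differed between chromosomes, from 19.3% on chromosome 22 (Wilson interval 12.2 to 29.0, 83 wide peaks) to 43.3% on chromosome 6 (38.0 to 48.7, 328 wide peaks). It was 39.1% on chromosome 4 and 38.4% on chromosome 3. When peaks near large gaps were left out, chromosome 4 stood at 48.5%.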
